A study of Mus musculus with 8 samples.

Results

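The insulin-like growth factor (IGF) axis was examined in the developing mouse heart through 9 genes, taken as the rows of the deposited expression table that carry the symbols Igf1, Igf2, Igf1r, Igf2r, Igfbp2, Igfbp3, Igfbp4, Igfbp5 and Igfbp7. All 9 were found among the 20701 gene symbols listed, and all 9 passed the filter on low counts with 13769 genes tested in all. Where a symbol had several transcripts, the transcript with the highest mean count was used. The genes were chosen by name, with earlier results of these data known.

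The libraries were made from polyadenylated RNA of single C57BL/6 embryos at stage E10.5, from the outflow tract together with the right ventricle (OFT/RV). There were 4 control embryos (CTRL), labelled wild type, and 4 embryos labelled Isl1 hypomorph (Isl1_hypo), which the study describes as homozygous for an Isl1 allele that lowers expression (Isl1-f;neo/f;neo). Isl1 is a transcription factor with LIM domains and a homeodomain that marks progenitors of the second heart field, from which the outflow tract and right ventricle form, and the comparison asks which genes depend on its dose there. Litter, parents and sex were not given in the sources used here, so p-values measure only the spread between these embryos. Each library is bulk tissue, so that fewer cells of a type and less RNA per cell cannot be told apart.

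IGF1 and IGF2 are secreted peptides related to insulin. Both act through the receptor tyrosine kinase IGF1R, which signals through adaptor proteins to PI3K, AKT and mTOR and promotes growth and survival. IGF2R, also known as the mannose 6-phosphate receptor, takes up IGF2 for degradation in lysosomes and is not a kinase. The IGF binding proteins are secreted carriers that hold IGFs away from the receptor or deliver them to it, and IGFBP7 binds IGFs only weakly and is known as a component of the vascular matrix. In the embryo, IGF2 is the main growth factor of the pair and the epicardium is a known source of it for the growing heart wall. Igf2 is expressed from the paternal allele and Igf2r from the maternal allele in the mouse.

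The targeted gene was examined first. Isl1 fell from 47.2 ± 13.3 CPM (depth-scaled counts, by the TMM method) in CTRL to 9.67 ± 2.83 CPM in Isl1_hypo (SD, n = 4). On the log2 scale the difference was −2.29 with an SE of 0.256 (adjusted p = 0.0077 in the quasi-likelihood test of edgeR). All fold changes below are Isl1_hypo minus CTRL on the log2 scale from the same fit, and adjusted p-values are by the Benjamini-Hochberg method over the 13769 genes. The depth was 29748458 to 46678973 counts per library in CTRL and 18422245 to 33050298 in Isl1_hypo. Isl1_hypo replicate 3 stood apart from the rest, with a median rank correlation of 0.970 to the other libraries of its group against 0.983 to 0.989 for the other 7 libraries, and its counts were shifted against GC-rich transcripts by 0.295 on the log2 scale for every 10 percentage points of GC (slope −0.295). CTRL replicate 1 had a slope of 0.119 log2 per doubling of transcript length, the largest of the 8 in size, followed by Isl1_hypo replicate 3 with −0.108.

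None of the 9 genes passed an adjusted p of 0.05 in the edgeR test, where 0.269% of all genes tested did. At an unadjusted p under 0.05 there were 2, Igfbp5 and Igfbp7, both lower in Isl1_hypo, against 11.9% of all genes in either direction and 6.17% lower. These were also the 2 genes whose groups did not overlap in CPM, again both lower, against 8.5% of all genes in either direction and 4.44% lower. DESeq2 called these same 2 at an adjusted p under 0.05, with 2.32% of its genes called and 1.24% called lower, and limma-voom with sample quality weights called Igf2r alone, with 0.973% of genes called and 0.458% called lower. The fitted log2 fold change was below 0 for 7 of the 9 genes, and for 49.1% of all genes. The median was −0.28 for the 9 genes and 0.0057 for all genes.

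**Figure D1:**
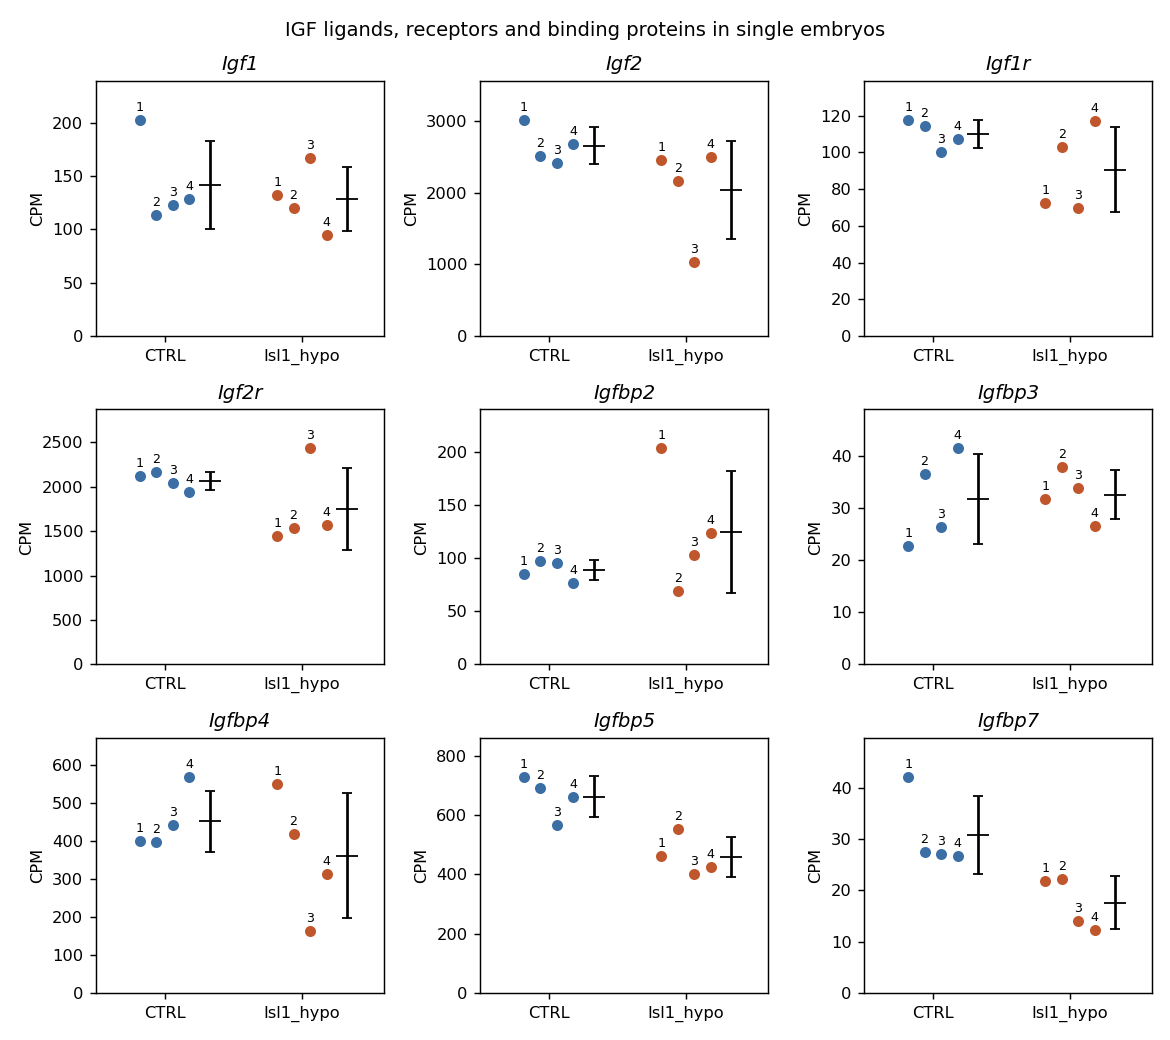
CPM of the 9 genes (vertical axis, from 0) in each embryo, with CTRL in blue and Isl1_hypo in orange. Small digits give the replicate and black bars the mean ± SD of the 4 embryos of a group. The groups are separate for Igfbp5, 568 to 730 against 401 to 554 CPM, and for Igfbp7, 26.7 to 42.2 against 12.3 to 22.1 CPM, and overlap for the other 7 genes.

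Levels were compared between genes only per transcript length, in the RPKM values of the authors. In the CTRL tissue, Igf2 stood highest at 440 ± 49.4 RPKM (SD, n = 4). It was followed by Igf2r at 143 ± 7.81 RPKM and by Igfbp4 at 135 ± 23.4 RPKM, whose ranges overlapped. Igfbp5 at 69.6 ± 8.11 RPKM and Igfbp2 at 41.1 ± 4.27 RPKM came next, without overlap with each other or with their neighbours. The low end held Igfbp7 at 17.0 ± 4.43 RPKM, Igf1 at 12.2 ± 3.73 RPKM, Igfbp3 at 7.99 ± 2.16 RPKM and Igf1r at 5.64 ± 0.464 RPKM, and each of these overlapped the next in range. The ligand transcript was therefore mostly that of Igf2, with an Igf2 to Igf1 ratio in RPKM of 28.6 to 42.7 in the CTRL embryos. Between the receptors, Igf2r exceeded Igf1r by 24.2 to 27.4 times in CTRL.

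In Isl1_hypo the order of the means differed at 2 places. Igfbp2, at 56.9 ± 26.7 RPKM, stood above Igfbp5, at 47.4 ± 7.39 RPKM, and Igf1, at 10.8 ± 2.37 RPKM, stood above Igfbp7, at 9.54 ± 2.88 RPKM. Igfbp5 exceeded Igfbp2 in 4 of 4 CTRL embryos and in 1 of 4 Isl1_hypo embryos, replicate 2. The RPKM summed over the 5 binding proteins was 253 to 299 in CTRL and 148 to 326 in Isl1_hypo, so the groups overlapped in this sum. Within this sum, Igfbp4 was the largest part in CTRL, with 45.1% to 56.6%, and in Isl1_hypo, with 31.3% to 52.8%. The share of Igfbp2 was 11.9% to 17.3% in CTRL and 13.5% to 30.9% in Isl1_hypo, where 3 of the 4 embryos were above the CTRL range.

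**Figure D2:**
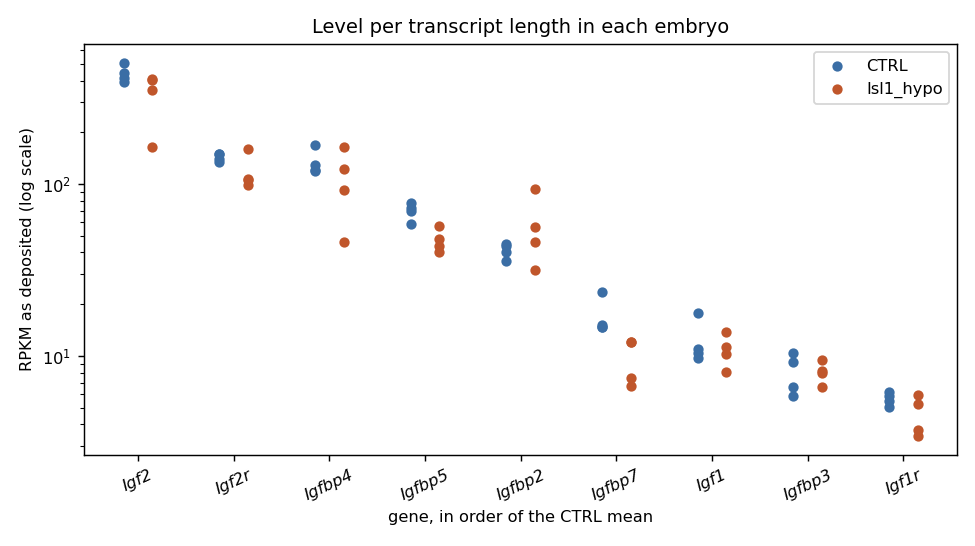
RPKM as deposited (vertical axis, log scale) of each gene in each embryo, with the genes in the order of the CTRL mean, CTRL in blue and Isl1_hypo in orange. Igf2 is the highest in every embryo, from 164 to 509 RPKM, and Igfbp2 and Igfbp5 exchange places between the groups.

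Among the ligands, Igf2 (chromosome 7, 149836673 to 149852721, minus strand, mm9) was among the most abundant transcripts of the tissue. The CTRL embryos, replicates 1 to 4 in order here and below, held 3014, 2515, 2419 and 2673 CPM, and the Isl1_hypo embryos 2454, 2160, 1032 and 2497 CPM. Isl1_hypo replicates 1 and 4 were within the CTRL range, replicate 2 was below it and replicate 3 far below. The log2 fold change was −0.38 (SE 0.227, 95% interval −0.88 to 0.11, adjusted p = 0.533, edgeR). Without Isl1_hypo replicate 3 it was −0.16, and without that library and CTRL replicate 1 together −0.10. With the mean globin level of each library as a covariate it was −0.15. All 5 listed Igf2 transcripts gave a log2 ratio of the mean CPM between −0.38 and −0.36. Their levels were similar, 2336 to 3014 CPM in CTRL replicate 1, so they may share reads and are not separate evidence. Of the exon bases of the gene, 98 are shared with Igf2as on the other strand, whose reads cannot be told apart in counts made without strand.

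Igf1 (chromosome 10, 87321010 to 87399792, plus strand) was at 203, 113, 123 and 128 CPM in CTRL and at 132, 120, 167 and 95 CPM in Isl1_hypo. CTRL replicate 1 was the highest of the 8, followed by Isl1_hypo replicate 3, and the remaining 6 embryos lay between 95 and 132 CPM. The log2 fold change of Igf1 was −0.14 (SE 0.204, 95% interval −0.59 to 0.30, adjusted p = 0.815, edgeR), and it was 0.07 without CTRL replicate 1, −0.24 without CTRL replicate 2, −0.30 without Isl1_hypo replicate 3 and −0.02 without Isl1_hypo replicate 4. With the trend on transcript length removed it was −0.01, and with the trend on GC content removed −0.26. The Igf1 transcript had the lowest GC content of the 9, 38.1%. In CTRL replicate 1, 5 of the 7 mesenchyme marker genes were at their highest of the 8 libraries, among them Postn at 642 CPM against 187 to 283 CPM in the other CTRL embryos. Of the other 2, Col1a1 at 425 CPM was inside the range of those embryos (401 to 533 CPM) and Col1a2 at 133 CPM was below it (199 to 350 CPM). Their part in the Igf1 value was not tested.

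Of the receptors, Igf1r (chromosome 7, 75097713 to 75371484, plus strand), the signalling receptor, was at 118, 114, 100 and 108 CPM in CTRL and at 72.4, 103, 69.7 and 117 CPM in Isl1_hypo. The CTRL embryos were close to each other, whereas Isl1_hypo replicates 1 and 3 were below all of them and replicates 2 and 4 within their range. This gave a log2 fold change of −0.28 (SE 0.163, 95% interval −0.63 to 0.08, adjusted p = 0.527, edgeR). Without these low libraries it was 0.0026, without replicate 3 alone −0.17 and without replicate 4 alone −0.43. It was −0.11 with the length trend removed and −0.11 with the mean globin level of each library as a covariate.

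Igf2r (chromosome 17, 12875272 to 12962530, minus strand), the clearance receptor, was at 2119, 2172, 2043 and 1943 CPM in CTRL and at 1444, 1541, 2433 and 1573 CPM in Isl1_hypo. In Isl1_hypo, 3 embryos lay below the lowest CTRL embryo and replicate 3 above the highest. The fitted log2 fold change was −0.24 (SE 0.156, 95% interval −0.58 to 0.10, adjusted p = 0.559, edgeR). The value depended on Isl1_hypo replicate 3: without it the log2 fold change was −0.45 (adjusted p = 0.0605, edgeR), and without it and CTRL replicate 1 together −0.43 (adjusted p = 0.0466, edgeR). In limma-voom, which weights down libraries that deviate, it was −0.42 (adjusted p = 0.0499). In the other direction, it was −0.16 without Isl1_hypo replicate 1 and −0.09 with the trend on transcript length removed (adjusted p = 0.864, edgeR).

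In Isl1_hypo replicate 3 the ligand and its clearance receptor moved apart. The Igf2 to Igf2r ratio in RPKM was 1.02 there, against 3.36 to 4.08 in the other Isl1_hypo embryos and 2.78 to 3.41 in CTRL. The Igf2r to Igf1r ratio was 47.0 in that embryo and 18.1 to 26.8 in the other 3. The GC content of the Igf2 transcript was 55.8% and that of Igf2r 51.2%, beside a median of 50.5% over the genes tested. The part of the GC shift of this library in these ratios was not tested.

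**Figure D3:**
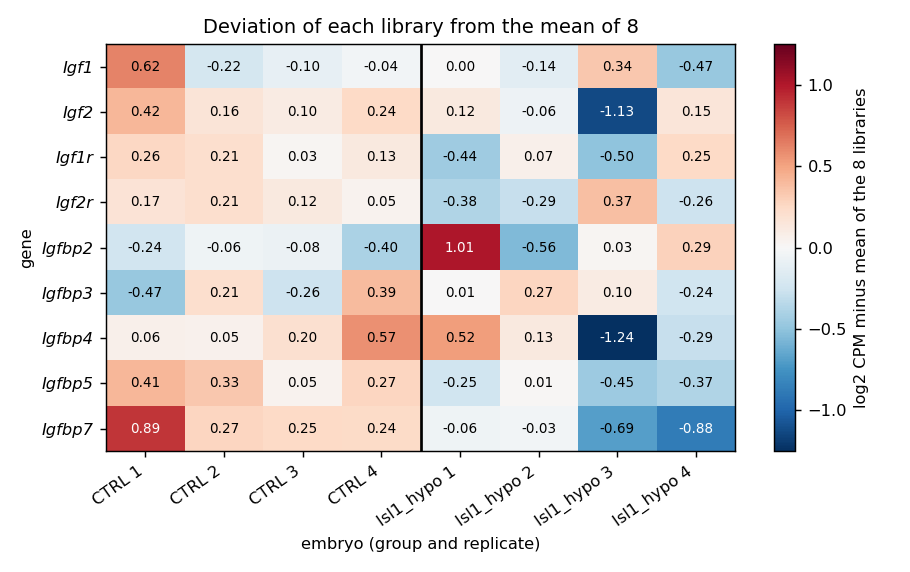
Deviation of each library from the mean of the 8 libraries, in log2 CPM, for each gene (rows) and embryo (columns), with red above and blue below the mean and the vertical line dividing CTRL from Isl1_hypo. Igf2, Igf1r, Igf2r, Igfbp4, Igfbp5 and Igfbp7 are above 0 in all 4 CTRL embryos, Isl1_hypo replicate 3 holds the lowest values of Igf2 (−1.13) and Igfbp4 (−1.24), and Isl1_hypo replicate 1 the highest of Igfbp2 (1.01).

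Igfbp5 and Igfbp7 differed most in proportion to their spread, and the promoters of both are shown, with that of Igfbp2, the neighbour of Igfbp5, for comparison. Each is the 250 bases before the start of the gene in RefSeq on build GRCm38.p6, read 5′ to 3′ on the gene's own strand. Capitals mark GGGCGG, the core of the GC box, on either strand, and TATTTAA, a variant TATA element. The windows are Igfbp5 chr1:72874866-72875115 (minus strand), Igfbp7 chr5:77408046-77408295 (minus strand) and Igfbp2 chr1:72824230-72824479 (plus strand, the first of 2 starts listed).
Igfbp5: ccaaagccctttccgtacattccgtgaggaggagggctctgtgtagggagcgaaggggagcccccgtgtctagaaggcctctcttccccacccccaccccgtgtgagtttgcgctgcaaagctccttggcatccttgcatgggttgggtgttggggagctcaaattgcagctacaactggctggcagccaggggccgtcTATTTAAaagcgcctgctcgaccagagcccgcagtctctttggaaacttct
Igfbp7: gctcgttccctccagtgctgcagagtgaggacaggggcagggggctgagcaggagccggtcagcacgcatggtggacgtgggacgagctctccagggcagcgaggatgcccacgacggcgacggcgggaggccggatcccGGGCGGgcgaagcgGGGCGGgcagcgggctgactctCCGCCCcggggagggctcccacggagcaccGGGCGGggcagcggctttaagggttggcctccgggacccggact
Igfbp2: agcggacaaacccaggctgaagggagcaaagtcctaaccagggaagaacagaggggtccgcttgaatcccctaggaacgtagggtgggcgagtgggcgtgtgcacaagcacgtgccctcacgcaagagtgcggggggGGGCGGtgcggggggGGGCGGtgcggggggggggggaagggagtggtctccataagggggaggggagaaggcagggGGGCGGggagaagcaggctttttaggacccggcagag
The Igfbp7 window held 4 GGGCGG matches and was 74.0% GC, the Igfbp2 window held 3 and was 67.2% GC, and the Igfbp5 window held none, was 58.8% GC and had a single TATTTAA that began 51 bases before the start. Of all 32851 windows of this length, 32.7% held GGGCGG and 4.18% held TATTTAA on either strand, and the median GC content was 52.4%. The letters TAAT, the core bound by homeodomain proteins, were in none of the 3 windows and in 54.9% of all windows. TATAAA and CCAAT were also in none of the 3, against 12.4% and 33.8% of all. The motifs do not overlap one another in these windows, and TATTTAA was chosen after the Igfbp5 sequence was seen.

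Igfbp5, the most conserved of the binding proteins and one that also attaches to extracellular matrix, lies on chromosome 1 (72904506 to 72921458, minus strand, mm9). It was at 730, 692, 568 and 663 CPM in CTRL and at 461, 554, 401 and 424 CPM in Isl1_hypo. Every Isl1_hypo embryo was below every CTRL embryo, with a gap between 554 and 568 CPM. The mean was 663 ± 69.2 CPM in CTRL and 460 ± 67.6 CPM in Isl1_hypo (SD, n = 4), and the log2 fold change was −0.53 (SE 0.125, 95% interval −0.80 to −0.25), which is 0.694 times the CTRL level. The unadjusted p was 0.00129, the 133rd smallest of the 13769 genes in the edgeR test, and the adjusted p was 0.134. The exact 2-sided permutation test of the mean log2 CPM gave p = 0.0286, the smallest that 4 against 4 embryos allow.

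Igfbp7 (chromosome 5, 77778265 to 77837070, minus strand) was at 42.2, 27.4, 27.0 and 26.7 CPM in CTRL and at 21.8, 22.1, 14.1 and 12.3 CPM in Isl1_hypo. The groups did not overlap, and within Isl1_hypo replicates 1 and 2 lay near the CTRL embryos and replicates 3 and 4 far below. The log2 fold change was −0.81 (SE 0.228, 95% interval −1.31 to −0.31), or 0.570 times CTRL, with an unadjusted p of 0.0042 and an adjusted p of 0.203 (edgeR). The exact 2-sided permutation test again gave the smallest p allowed, 0.0286. CTRL replicate 1 was far above the other 3, and without it the log2 fold change was −0.63 (adjusted p = 0.391, edgeR). Its exons share 85 bases with Polr2b on the other strand, so some reads counted for Igfbp7 may be of that gene.

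In DESeq2 the same differences had adjusted p-values of 0.00674 for Igfbp5 and 0.0368 for Igfbp7, so that the call rests on the test used. With the mean globin level of each library as a covariate, the log2 fold changes were −0.38 for Igfbp5 and −0.45 for Igfbp7 (both adjusted p = 0.9996, edgeR). Globin itself differed between the groups, and the SEs were larger in this fit, 0.188 and 0.329. Isl1 was not called there either (adjusted p = 0.519, edgeR), so the fit separates globin from genotype poorly. With the level of Y-linked genes as a covariate, an alternative chosen after seeing the data, the log2 fold changes of Igfbp5 and Igfbp7 were −0.35 and −0.63.

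**Figure D4:**
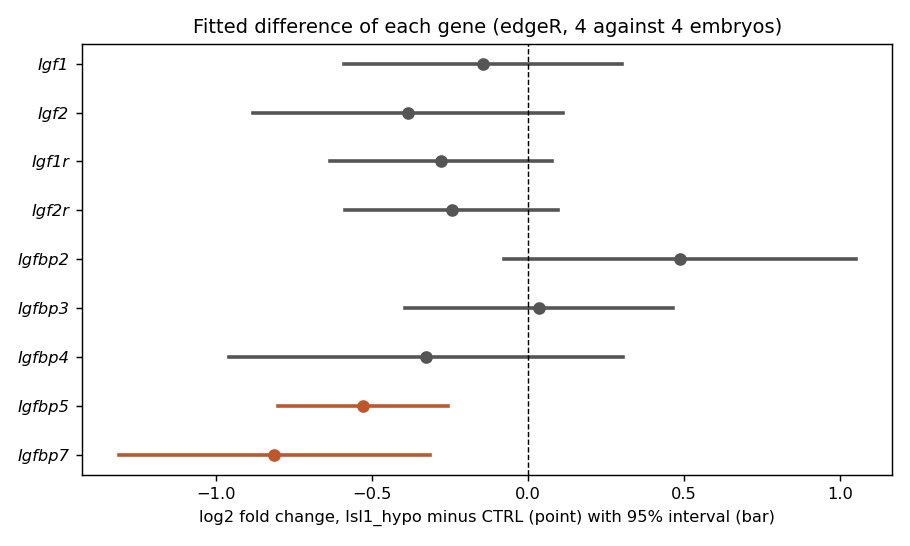
Log2 fold change of Isl1_hypo against CTRL from the edgeR fit (horizontal axis) for each gene (rows), with points for the estimate and bars for the 95% interval. The 2 genes in orange, Igfbp5 and Igfbp7, have an unadjusted p under 0.05 and intervals below 0, and the intervals of the other 7 genes include 0.

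Igfbp2 (chromosome 1, 72871077 to 72899048, plus strand), a binding protein made by many embryonic tissues, had the largest difference in the other direction. It was at 85.4, 97.0, 95.8 and 76.6 CPM in CTRL and at 203, 68.6, 103 and 123 CPM in Isl1_hypo. The CTRL embryos were within a narrow range, and 3 Isl1_hypo embryos were above it while replicate 2 was below. For Igfbp2 the log2 fold change was 0.49 (SE 0.257, 95% interval −0.08 to 1.05, adjusted p = 0.488, edgeR). The embryo with the highest Igfbp2, Isl1_hypo replicate 1, also held the highest epithelial marker sum, 302 CPM against 67.9 to 192 CPM in the other 7 libraries, with Epcam at 9.83 CPM against 0.128 to 1.87 CPM. This embryo also held the highest mesenchyme marker sum, 2898 CPM, with the highest Col1a1 (1008 CPM) and Col1a2 (496 CPM). The other mesenchyme genes were not at their highest there. The part of these cell types in the Igfbp2 value was not tested. Without this embryo alone the log2 fold change of Igfbp2 was 0.15 (0.57 without replicate 3 alone). With the level of Y-linked genes as a covariate it was 0.11. In the other direction, it was 0.68 without Isl1_hypo replicate 2 (adjusted p = 0.275, edgeR), 0.63 with the GC trend removed and 0.72 with globin as a covariate.

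Igfbp2 and Igfbp5 lie end to end on chromosome 1, with 5457 bases between them and transcription towards each other. The Igfbp2 to Igfbp5 ratio in RPKM was 0.518, 0.621, 0.747 and 0.511 in CTRL and 1.95, 0.548, 1.14 and 1.29 in Isl1_hypo. Isl1_hypo replicates 1, 3 and 4 were above the CTRL range and replicate 2 was inside it, so the groups overlapped.

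Igfbp4 (chromosome 11, 98902558 to 98913969, plus strand), an inhibitor of IGF action that is also known as a Wnt antagonist in heart development, was at 401, 399, 442 and 570 CPM in CTRL and at 552, 419, 162 and 314 CPM in Isl1_hypo. The Isl1_hypo embryos spread from inside the CTRL range to far below it, with replicate 3 the lowest. This gave a log2 fold change of −0.33 (SE 0.288, 95% interval −0.96 to 0.31, adjusted p = 0.679, edgeR). It was −0.08 without Isl1_hypo replicate 3, −0.60 without replicate 1 and −0.20 without CTRL replicate 4.

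Igfbp3 (chromosome 11, 7106089 to 7113926, minus strand), the main IGF carrier of adult blood, was at 22.7, 36.5, 26.4 and 41.4 CPM in CTRL and at 31.8, 38.0, 33.9 and 26.6 CPM in Isl1_hypo. All Isl1_hypo embryos lay within the CTRL range. The fitted log2 fold change was 0.04 (SE 0.195, 95% interval −0.39 to 0.46, adjusted p = 0.958, edgeR), and its sign turned under several alternatives.

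**Figure D5:**
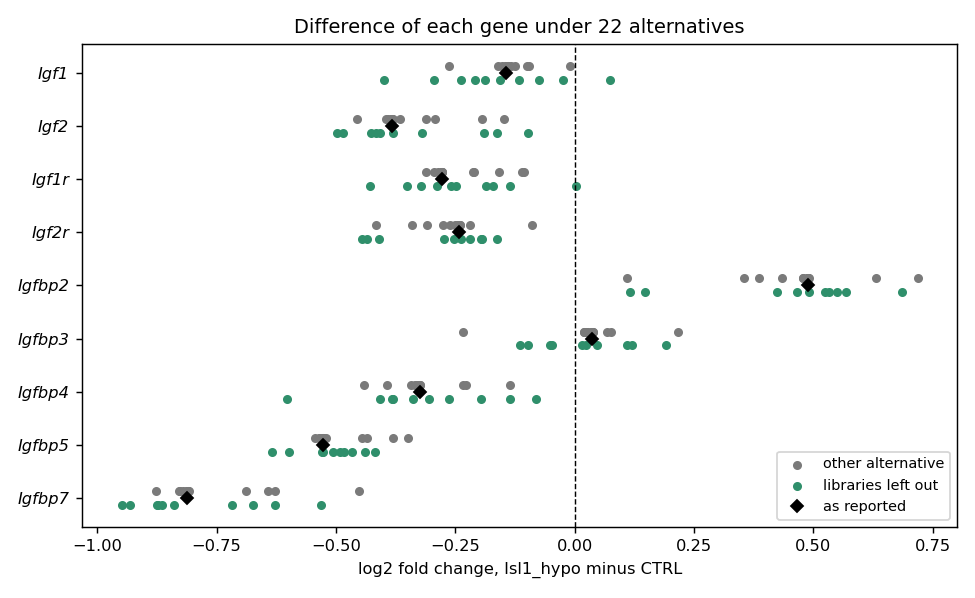
Log2 fold change of each gene (rows) under 22 alternatives, in green where libraries were left out and in grey for other choices of scaling, filter, test or covariate, with the value as reported as a black diamond. Igfbp5 stays between −0.63 and −0.35 and Igfbp7 between −0.95 and −0.45, while Igfbp3, Igf1 and Igf1r reach both sides of 0.

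The genes most like Igfbp7 and Igfbp5, the pair with the largest fold change in size, were those with the smallest root mean square difference in centred log2 CPM over the 8 libraries. For Igfbp7 they were Foxp2 (0.133), Esr1 (0.140) and Ptprm (0.141), against a median of 0.597 over all genes. Ptprm, for example, was at 42.3, 31.6, 28.9 and 30.7 CPM in CTRL and at 27.8, 26.6, 15.5 and 17.3 CPM in Isl1_hypo. As with Igfbp7, CTRL replicate 1 was the highest and Isl1_hypo replicates 3 and 4 the lowest. Such a likeness follows from the way these genes were picked. For Igfbp5 they were Atf7 (0.0906), Adamts1 (0.102) and Bcor (0.110), against a median of 0.409. Adamts1, a secreted protease of the extracellular matrix, was at 139 to 159 CPM in CTRL and at 93.6 to 121 CPM in Isl1_hypo.

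Other genes of the pathway were read from the same fit. Of 50 genes in 10 lists, 48 were listed and 40 tested. None passed an adjusted p of 0.05, 1 was lower and 3 were higher at an unadjusted p under 0.05 (6.17% and 5.69% of all genes), and the median log2 fold change was 0.02. DESeq2 and limma-voom also called none of them. Insulin transcripts were at the limit of detection: Ins1 had 0 counts in every library, and Ins2 had counts only in Isl1_hypo replicate 4, at 0.138 CPM. Insr, the insulin receptor, was at 86.5 to 122 CPM in CTRL and 44.8 to 99.2 CPM in Isl1_hypo, with a log2 fold change of −0.33. Without Isl1_hypo replicate 3, its lowest library, it was −0.13, and without CTRL replicate 4 −0.22.

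The remaining binding proteins were low. Igfbp1 did not exceed 0.320 CPM in any library and was not tested, and Igfbp6 was at 0.315 ± 0.192 CPM in CTRL and 0.688 ± 0.552 CPM in Isl1_hypo (log2 fold change 1.12, SE 0.817, and 0.68 without Isl1_hypo replicate 1). Igfbpl1 was at 12.2 ± 4.03 and 11.6 ± 5.58 CPM (−0.08, SE 0.391). Pappa and Htra1 encode proteases that cut binding proteins, and Stc1 and Stc2 encode stanniocalcins, which block the product of Pappa. Of these genes Stc1 (log2 fold change 0.35) and Stc2 (−0.48) had the lowest p-values, neither under 0.05. The value of Stc1 was 0.53 without Isl1_hypo replicate 1, and that of Stc2 −0.32 without CTRL replicate 1 and −0.27 without Isl1_hypo replicate 2.

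Igf2bp1, which encodes an RNA-binding protein first found on the Igf2 transcript, was at 498, 430, 470 and 555 CPM in CTRL and at 486, 636, 673 and 607 CPM in Isl1_hypo. Except for replicate 1 the Isl1_hypo embryos were above all CTRL embryos. The log2 fold change was 0.30 (SE 0.123, unadjusted p = 0.033, adjusted p = 0.367, edgeR). It was 0.07 with globin as a covariate and 0.43 with the length trend removed. Igf2bp3, of the same family, had a log2 fold change of 0.24 (SE 0.123), which was 0.12 without Isl1_hypo replicate 3. Igf2bp2, the remaining member, had −0.18 (SE 0.094).

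Downstream of the receptor, Pik3r1, the main regulatory subunit of PI3K, was at 12.3 to 20.3 CPM in CTRL and 21.1 to 24.3 CPM in Isl1_hypo, without overlap. Its log2 fold change was 0.41 (SE 0.165, unadjusted p = 0.029, adjusted p = 0.35, edgeR). Pik3r2, a related subunit, had −0.35 (SE 0.183), or −0.18 without Isl1_hypo replicate 3. Among the adaptors, Grb14, an inhibitor of the insulin receptor, had −0.24 (SE 0.106, unadjusted p = 0.0415, adjusted p = 0.396, edgeR) and Grb2 had 0.15 (SE 0.12), or 0.099 without Isl1_hypo replicate 4. Tsc1 and Tsc2, whose products together hold mTOR in check, had −0.42 (SE 0.221) and −0.35 (SE 0.195), and both were lowest in Isl1_hypo replicate 3. Without that library they were −0.22 and −0.17. The transcription factor genes Foxo3 and Foxo1, which AKT holds out of the nucleus, had −0.79 (SE 0.441) and 0.07 (SE 0.218). Foxo3 was −0.36 without Isl1_hypo replicates 1 and 3 together and −0.23 with globin as a covariate. In the other direction, it was −1.17 without Isl1_hypo replicate 2.

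Mest, an imprinted growth gene expressed from the paternal allele as Igf2 is, was at 5869 to 7084 CPM in CTRL and 7389 to 7907 CPM in Isl1_hypo. The groups did not overlap, and the log2 fold change was 0.23 (SE 0.0948, unadjusted p = 0.0323, adjusted p = 0.364, edgeR). Plagl1, an imprinted transcription factor gene of the same growth network, had 0.10 (SE 0.178), and −0.04 to 0.22 with single libraries left out. H19 and Airn were not analysed here.

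Markers of the tissue and of the cell types it could hold were read in the same libraries. All 6 cardiomyocyte genes were tested and their summed level was 31919 to 39613 CPM in CTRL and 34504 to 42589 CPM in Isl1_hypo, with Actc1 the largest part. The log2 fold change was below 0 for 2 of the 6, Tnnt2 (−0.18) and Myh7, and above 0 for the other 4. Myh7, a myosin heavy chain gene, was at 3947 to 5175 CPM in CTRL and 2787 to 3617 CPM in Isl1_hypo without overlap (log2 fold change −0.49, unadjusted p = 0.00202, adjusted p = 0.165, edgeR). Beside the lower Igfbp5 and Igfbp7, 5 of 7 endothelial and endocardial genes had log2 fold changes below 0 (sum 701 to 830 CPM in CTRL, 563 to 749 CPM in Isl1_hypo), among them Pecam1 (−0.58) and Cdh5 (−0.54), whose groups did not overlap, while Nfatc1 (0.36) and Emcn (0.23) were above 0. Mesenchyme genes were below 0 in 6 of 7, with sums of 1571 to 2355 and 872 to 2898 CPM. Epicardial genes were above 0 in 5 of 5, with sums of 48.3 to 303 and 366 to 586 CPM, and CTRL replicate 1 was the lowest. Erythroid genes were above 0 in 6 of 6, with sums of 44.9 to 157 and 176 to 373 CPM, and Epb42 was the one that passed the adjusted p. The sum of the 9 globin genes was 2020 to 11897 CPM in CTRL and 11870 to 25516 CPM in Isl1_hypo. Hba-a1 and Hba-a2 had the same counts in every library, and Hbb-b1 with Hbb-bs and Hbb-b2 with Hbb-bt nearly the same. The sum is therefore not over 9 separate genes. Epithelial genes were above 0 in the 3 of 6 tested, with sums of 67.9 to 115 and 124 to 302 CPM, mostly from Krt8 and Krt18. Cdh1, Cldn6 and Esrp1 were not tested and were high only in Isl1_hypo replicate 1, at 15.3, 38.5 and 6.03 CPM. Cdh1 was at 0 CPM in 4 libraries. Liver and yolk sac genes summed to at most 5.71 CPM, and the 5 macrophage genes, 4 of them below 0, to 6.62 to 15.4 CPM in CTRL and 1.30 to 11.7 CPM in Isl1_hypo. The part of these cell types in the values of the IGF genes was not tested.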

How the data were processed

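The authors aligned reads of single-embryo poly(A) RNA libraries (BGISEQ-500) to mm9 with STAR and counted exon reads per RefSeq transcript with HOMER on both strands. The deposited counts were whole and not normalized. The authors also deposited RPKM, made with edgeR from these counts, the listed transcript lengths and the totals over all 31507 transcripts. The deposited columns of the authors' own DESeq2 comparison were not used. One transcript per symbol was kept, the one with the highest mean count. Genes were filtered with filterByExpr, scaled by TMM and tested with the quasi-likelihood test of edgeR 4.0.16 in R 4.3.3 without covariates (8 libraries, common dispersion 0.0699), and p-values were adjusted by Benjamini-Hochberg. SE is the log2 fold change divided by the square root of F. Alternatives used DESeq2 1.42.0 and limma 3.58.1. A prior count of 2 was added for log2 CPM. The exact permutation test used all 70 assignments. The script was tested on simulated data.

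The genes, lists and alternatives were chosen with earlier results of these data known. Named were Isl1, the 9 genes, the 2 genes of lowest p in each pathway list, any with an adjusted p under 0.05, and the 3 genes closest in pattern to the 2 largest differences. Marker genes, Igf2bp2, Pappa, Htra1, Ins1, Ins2 and Igfbp1 are named as list members. Gene coordinates are from GENCODE M1 on mm9, promoters from RefSeq on GRCm38.p6. Each library was compared with its group, and all differed by far more than counting error.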

Additional observations from a re-analysis of the deposited data

Results flagged for a closer look

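In 3 of the 20 groups of 4 embryos examined, a single embryo lay far from the other 3 by Dixon's test, where chance gives about 1. Igf2 was at 1032 CPM in Isl1_hypo replicate 3, against 2160 to 2497 CPM in the other Isl1_hypo embryos. Igf2r was at 2433 CPM in the same embryo, against 1444 to 1573 CPM in the others, and so was displaced in the opposite direction. Igfbp7 was at 42.2 CPM in CTRL replicate 1, against 26.7 to 27.4 CPM in the other CTRL embryos. Isl1_hypo replicate 3 was also the library with the lowest rank correlation to its group and the largest slope on GC content, and CTRL replicate 1 the one with the largest slope on transcript length. The part of these in the 3 values was not tested.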

How the results depend on the processing

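Directions of Igf2, Igf2r, Igfbp2, Igfbp4, Igfbp5 and Igfbp7 held under all 22 alternatives. Genes with an adjusted p under 0.05 numbered 37 in edgeR, 319 in DESeq2, 134 in limma-voom, 0 with globin as covariate (499 at an unadjusted p under 0.05), 3 with the Y-linked covariate, and 4 to 48 with a library left out (8, 5 and 4 without CTRL replicates 1, 2 and 3, and 12 and 11 without Isl1_hypo replicates 2 and 4). Of the 9 genes, DESeq2 called 2, limma-voom 1, and the fit without CTRL 1 and Isl1_hypo 3 together, chosen after seeing the data, 1 (49 of 13900 genes in all). Leaving out single libraries called 0, with 2 to 3 at an unadjusted p under 0.05, where 9.26% to 13.8% of all genes were. The log2 fold change of Isl1 was −2.30 with globin as covariate (adjusted p = 0.519, edgeR).

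Same-numbered libraries did not deviate together (correlations −0.021 to 0.022). This cannot settle whether the numbers pair embryos by litter or handling, which the sources did not give. With a replicate block, 0 genes were called (1582 at an unadjusted p under 0.05), and Isl1 was at −2.29 (adjusted p = 0.0722, edgeR).

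Signs turned as follows, and the cause was not tested. Igf1 was −0.30 to 0.074 with single libraries left out (0.074 without CTRL 1), and Igf1r 0.0026 and Igfbp6 −0.53 without Isl1_hypo 1 and 3. Igfbp3 was −0.24 with globin, −0.12 without CTRL 1 and Isl1_hypo 3, and −0.10 to 0.19 with single libraries left out. Plagl1 was −0.044 to 0.22 with single libraries left out. Foxo1 was −0.070 in limma-voom, −0.16 with globin, −0.16 without CTRL 1 and Isl1_hypo 3, and −0.14 to 0.22 with single libraries left out. Igfbpl1 was 0.29 in limma-voom, 0.19 without Isl1_hypo 1 and 3, 0.32 with globin, 0.12 with the Y-linked covariate, 0.47 without CTRL 1 and Isl1_hypo 3, and −0.25 to 0.23 with single libraries left out.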
